A study of Mus musculus with 20 samples.

Results

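The genes described here are the ligands and receptors of axon guidance: semaphorins of classes 3 to 7, plexins, neuropilins, ephrins, Eph receptors, Slit and Robo genes, netrins and Unc5 receptors. Members were taken by gene symbol, and 68 of the 24347 symbols in the expression tables belonged to these families. Of the 68, 50 reached 1 FPKM in 3 or more of the 12 RNA libraries and were tested among the 12938 genes that passed the same filter. FPKM counts sequenced fragments relative to transcript length and library size, so levels can be set side by side between genes.

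RNA was sequenced from 2 stromal populations of mouse femora and tibiae, sorted after crushing and collagenase digestion. Both were CD45-, CD31- and Lin- (no blood or endothelial surface markers) and PDGFRα+; the Sca1- fraction was taken as CAR cells, named for abundant CXCL12, and the Sca1+ fraction as PaS cells. All mice were C57BL/6 and carried 1 Prx1-Cre allele, in which the Prx1 promoter drives Cre recombinase in limb bud mesenchyme. Libraries labelled wt came from Ebf1+/+;Prx1+/cre mice and libraries labelled ko from Ebf1fl/fl;Prx1+/cre mice, and 3 libraries of each genotype were made from CAR and 3 from PaS cells. The ages of the mice, and whether a library came from 1 animal or a pool, are not given in the sources used here.

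Ebf1, the floxed transcription factor gene, had 48.9, 48.5 and 46.8 FPKM in CAR wt against 56.0, 56.7 and 59.8 in CAR ko libraries (means 48.1 ± 1.10 and 57.5 ± 1.99, SD, n = 3 each; log2 difference of FPKM + 1 0.25, limma adjusted p = 0.040). In PaS cells it had 55.0, 62.1 and 50.5 FPKM in wt and 65.0, 61.9 and 60.7 FPKM in ko libraries (log2 difference 0.16, adjusted p = 0.25). The targeted transcript was thus not lower in the libraries labelled ko, and a value for the whole gene counts exons that a deletion leaves in place too, so it does not check these labels. All 15 listed CAR cell markers were called higher in CAR wt than in PaS wt, beside 20.5% of all genes tested. All 15 listed PaS markers were called lower, beside 22.7% of all genes tested. Ly6a, which encodes the sorting marker Sca1, had 4.03 to 5.58 FPKM in CAR wt and 1740 to 2176 FPKM in PaS wt libraries. The lists were chosen with earlier results of these data known, so the counts are not an independent check of the population labels. Libraries summed to 491801 to 526074 FPKM, with 11863 to 12295 genes at 1 FPKM or more. The share of genes listed at 0 was 24.6% in PaS wt replicate 1 and 33.3% to 37.0% elsewhere; no tested member was at 0 in any library.

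Axon guidance molecules steer growing nerve fibres by attraction or repulsion, and most act far outside the nervous system, in vessels, bone and blood-forming tissue. Class 3 semaphorins are secreted and bind neuropilins, which signal through A-type plexins, while Sema3e binds Plxnd1 directly; most other semaphorins are held at the membrane and bind plexins themselves. Netrins bind Dcc, Neo1 and the Unc5 receptors, Slits bind Robo receptors, and ephrins on 1 cell bind Eph receptors on its neighbour. In bone, members of several of these families have been described on osteoblasts, osteoclasts or vessels, and sensory and sympathetic fibres run through the marrow beside stromal cells.

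Promoter sequence is shown for 5 members called higher in CAR ko and for the 1 member with a full EBF motif, because EBF proteins bind DNA at a palindrome, the core CCCNNGGG with a T before it and an A after it. Of the 50 members, 45 matched a RefSeq promoter by symbol (build GRCm38.p6, 60 start sites); the 250 bases before each start were searched on both strands. The full palindrome stood before 1 of 60 member starts (1.67%, beside 0.779% of all 32851 starts), and that start belonged to Plxnb1, whose level differed between populations but was not called between genotypes. The core alone, which every palindrome contains and which reads the same on both strands, stood before 12 of 60 member starts (20%, beside 11.8% of all starts). Of the 13 members called between ko and wt, 11 had a promoter entry, with 15 starts, and Ntn1 and Sema3b had none. The core stood before 5 of these 15 starts (33.3%), those of Efna1, Ntn4, Sema4a, Slit3 and Unc5a, and the full palindrome before 0 of 15. Sema4a alone has 4 of the 15 starts, and the set of all starts was not limited to genes that passed the expression filter. Among members called higher in CAR ko that had a promoter entry, only Ntn4 had the core. Whether these shares differ was not tested. The windows below run 5′ to 3′ and end 1 base before the start site, with core matches in capitals, and Plxnb1 has the full palindrome in capitals.
Sema3d (chr5:12382916-12383165, + strand): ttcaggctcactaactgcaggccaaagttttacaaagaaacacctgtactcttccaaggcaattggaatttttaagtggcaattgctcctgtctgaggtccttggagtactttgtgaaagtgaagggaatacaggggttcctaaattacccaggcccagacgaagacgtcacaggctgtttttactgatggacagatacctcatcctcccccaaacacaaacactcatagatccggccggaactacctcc
Sema3e (chr5:14025026-14025275, + strand): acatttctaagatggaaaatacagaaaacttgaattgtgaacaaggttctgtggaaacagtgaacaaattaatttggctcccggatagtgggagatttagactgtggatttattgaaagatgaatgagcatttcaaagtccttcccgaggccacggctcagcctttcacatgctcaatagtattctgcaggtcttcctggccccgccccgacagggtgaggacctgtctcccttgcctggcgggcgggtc
Nrp2 (chr1:62703067-62703316, + strand): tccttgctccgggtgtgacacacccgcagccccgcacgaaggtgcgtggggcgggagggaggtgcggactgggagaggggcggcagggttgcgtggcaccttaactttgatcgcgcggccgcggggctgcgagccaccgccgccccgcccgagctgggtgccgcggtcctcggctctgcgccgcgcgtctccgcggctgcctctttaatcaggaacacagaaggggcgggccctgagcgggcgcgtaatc
Slit2 (chr5:47982905-47983154, + strand): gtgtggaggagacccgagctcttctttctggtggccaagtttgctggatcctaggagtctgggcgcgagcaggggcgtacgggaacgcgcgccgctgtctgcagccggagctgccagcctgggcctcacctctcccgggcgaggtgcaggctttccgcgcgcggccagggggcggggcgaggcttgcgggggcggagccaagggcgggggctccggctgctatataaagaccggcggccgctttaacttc
Ntn4 (chr10:93640799-93641048, + strand): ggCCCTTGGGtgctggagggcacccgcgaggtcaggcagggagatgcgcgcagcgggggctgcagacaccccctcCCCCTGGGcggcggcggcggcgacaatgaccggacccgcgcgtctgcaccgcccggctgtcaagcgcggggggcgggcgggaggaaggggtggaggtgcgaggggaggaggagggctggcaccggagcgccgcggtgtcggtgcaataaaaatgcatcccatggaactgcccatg
Plxnb1 (chr9:109095186-109095435, + strand): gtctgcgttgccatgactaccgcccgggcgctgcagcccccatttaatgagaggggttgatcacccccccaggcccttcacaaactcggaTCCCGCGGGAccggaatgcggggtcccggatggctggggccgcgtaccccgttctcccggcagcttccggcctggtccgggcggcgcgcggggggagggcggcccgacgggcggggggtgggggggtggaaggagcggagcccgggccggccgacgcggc
Ntn4 has 2 core matches, and the palindrome of Plxnb1 begins at -160 from its start site. The windows of Sema3d, Sema3e, Nrp2 and Slit2 hold neither motif. Base composition differed widely: G and C made up 46.8% and 48.0% of the windows of Sema3d and Sema3e, and 72.4%, 69.6% and 73.2% of those of Nrp2, Slit2 and Ntn4.

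Which members were most abundant depended on the population. In CAR wt cells the 3 highest means were those of Nrp1, a co-receptor for class 3 semaphorins and for VEGF, at 108 ± 3.05 FPKM, its paralog Nrp2 at 56.3 ± 8.99 and the ligand Efnb1 at 43.4 ± 1.36 FPKM (SD, n = 3). In PaS wt cells Nrp1 at 69.5 ± 1.28 FPKM was followed by 3 secreted ligands, Sema3c at 65.7 ± 2.39, Ntn1 at 34.1 ± 1.54 and Ntn4 at 28.4 ± 3.29 FPKM, while Nrp2 averaged 15.4 ± 1.43 FPKM. The receptor Unc5b lay above both of these netrins in CAR wt, at 6.23 ± 1.20 FPKM against 4.80 ± 0.746 for Ntn4 and 2.27 ± 0.566 for Ntn1, although single libraries of Unc5b and Ntn4 overlapped, and below them in PaS wt, at 1.16 ± 0.0298 FPKM. Plxnb2, the highest plexin over all 12 libraries, had 15.6, 18.6 and 14.3 FPKM in CAR wt, 14.4, 16.8 and 14.1 in CAR ko, 17.1, 13.4 and 13.8 in PaS wt and 14.6, 13.8 and 14.2 in PaS ko. Ephb4, the highest EphB receptor and a receptor for Efnb2, had 11.7, 11.4 and 11.5 FPKM in CAR wt, 11.0, 10.2 and 10.6 in CAR ko, 10.4, 10.1 and 8.17 in PaS wt and 12.3, 8.74 and 9.58 in PaS ko. Neither was called in any comparison.

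The first comparison sets wt CAR against wt PaS cells. Of the secreted ligands, 5 of 6 class 3 semaphorins and the netrins Ntn1 and Ntn4 were higher in PaS cells, while the receptors Nrp1, Nrp2, Plxna2, Plxnd1, Unc5b and Unc5c were higher in CAR cells. Other families did not follow this split: the secreted ligand Slit2 was higher in CAR cells, and the receptors Epha1, Ephb2 and Ephb3 were higher in PaS cells. In bulk samples, fewer cells of a type and less RNA per cell cannot be told apart. Of the 50 members, 19 were called higher in CAR and 12 higher in PaS cells, a share of 62% beside 43.2% of all genes tested (20.5% higher and 22.7% lower in CAR). Differences were tested with limma on log2(FPKM + 1), a scale that understates the change of low genes, and a gene was called where the p-value adjusted over all 12938 genes was under 0.05. Each difference below is followed by its standard error (SE). The labels do not say that libraries came from separate animals, so p-values measure the spread between these libraries, which may be technical. Of the 50 members, 6 passed the filter through PaS libraries alone (Epha1, Epha4, Epha7, Ephb2, Sema3f and Sema6b) and 3 through CAR libraries alone (Efnb3, Robo2 and Unc5c), which favours a difference. Among the other 41, 16 were called higher in CAR and 9 higher in PaS cells, or 61% of them. The median log2 difference was 0.14 over the 50 members and -0.00 over all genes.

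Sema3c, a secreted semaphorin of heart and vessel development, had 2.92, 1.5 and 4.03 FPKM in CAR wt and 66.6, 67.5 and 63.0 FPKM in PaS wt libraries (log2 difference -4.19, SE 0.21, adjusted p = 1.3e-10). Sema3e, the ligand of Plxnd1, had 0.643, 0.110 and 0.745 FPKM in CAR wt and 21.6, 22.1 and 18.8 FPKM in PaS wt (log2 difference -3.89, SE 0.18, adjusted p = 6.9e-11). These were the widest gaps among the members, and every PaS library lay far above every CAR library. Sema3a, a repellent of sensory axons that also acts on bone cells, had 0.915, 1.06 and 0.675 FPKM in CAR wt and 5.09, 5.32 and 6.5 FPKM in PaS wt (log2 difference -1.82, SE 0.18, adjusted p = 4.8e-07). Sema3f, an Nrp2 ligand, had 0.143, 0.877 and 0.573 FPKM in CAR wt and 4.71, 6.45 and 4.64 FPKM in PaS wt (log2 difference -2.05, SE 0.21, adjusted p = 6.8e-07). Sema3b was less far apart, with 6.41, 6.43 and 7.02 FPKM in CAR wt and 10.6, 10.7 and 12.3 FPKM in PaS wt (log2 difference -0.68, SE 0.13, adjusted p = 5.2e-04). Sema3d was the class 3 member that was not called, at 5.74 ± 2.42 and 5.62 ± 1.01 FPKM (log2 difference -0.02, adjusted p = 0.95). Summed over the class, levels were 17.1 ± 1.54 FPKM in CAR wt and 114.5 ± 3.91 FPKM in PaS wt libraries.

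The co-receptors ran the other way. Nrp2 had 54.9, 65.9 and 48.1 FPKM in CAR wt and 16.5, 15.9 and 13.8 FPKM in PaS wt (log2 difference 1.80, SE 0.11, adjusted p = 1.4e-09). Nrp1 had 109, 109.9 and 104 FPKM in CAR wt and 70.1, 70.3 and 68.0 FPKM in PaS wt (log2 difference 0.63, SE 0.07, adjusted p = 3.3e-06). Neither gene overlapped between the populations, and CAR cells held both neuropilins at high levels while PaS cells held mainly Nrp1. Among the plexins that complete these receptors, Plxna2 had 12.6, 12.5 and 12.9 FPKM in CAR wt and 4.73, 4.91 and 3.90 FPKM in PaS wt (log2 difference 1.31, SE 0.14, adjusted p = 1.5e-06). Plxnd1, the Sema3e receptor known best from endothelium, was called higher in CAR cells at 10.2 ± 0.657 against 5.41 ± 1.30 FPKM (log2 difference 0.82, adjusted p = 5.9e-04). Plxna1 and Plxna3 were not called, with log2 differences of -0.18 and 0.06.

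**Figure D1:**
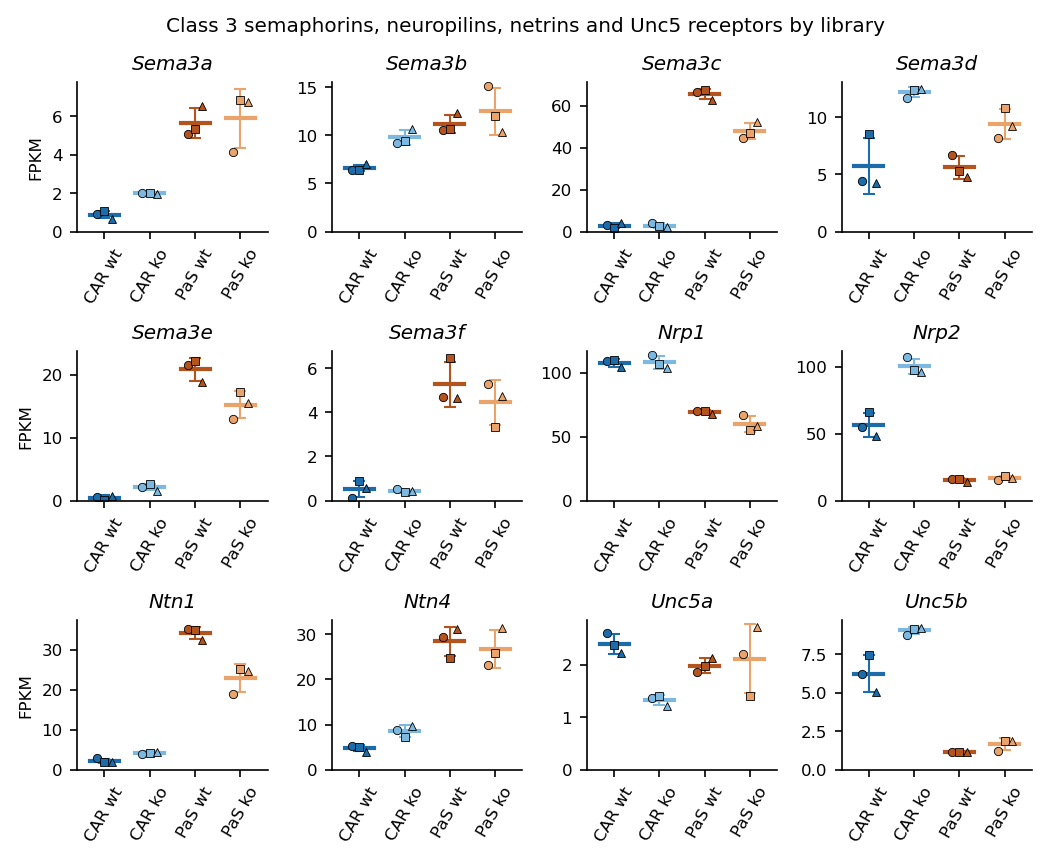
FPKM (linear axis from 0) of class 3 semaphorins, neuropilins, netrins and 2 Unc5 receptors in each library of the 4 groups; points are libraries (circle, square and triangle for replicates 1, 2 and 3), bars are means and whiskers are SD of 3 libraries. Sema3c, Sema3e, Sema3f, Ntn1 and Ntn4 sit high in PaS libraries, Nrp2 and Unc5b sit high in CAR libraries, and Nrp2 is higher in all 3 CAR ko than in all 3 CAR wt libraries.

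The netrin system had the same arrangement. Ntn1, the founding netrin, had 2.92, 2.00 and 1.89 FPKM in CAR wt and 35.1, 35.0 and 32.4 FPKM in PaS wt (log2 difference -3.44, SE 0.14, adjusted p = 1.0e-11). Ntn4, a netrin of basement membranes that binds laminin, had 5.36, 5.09 and 3.96 FPKM in CAR wt and 29.4, 24.7 and 31.0 FPKM in PaS wt (log2 difference -2.34, SE 0.14, adjusted p = 1.6e-09). Both ligands were separated without overlap. Unc5b, a netrin receptor also found on vessels, had 6.22, 7.43 and 5.03 FPKM in CAR wt and 1.19, 1.16 and 1.13 FPKM in PaS wt (log2 difference 1.73, SE 0.16, adjusted p = 2.1e-07). Unc5c was called in the same direction at 1.46 ± 0.452 against 0.424 ± 0.291 FPKM (adjusted p = 0.0048), and Unc5a and Ntn3 had log2 differences of 0.19 and -0.07 without a call. Of the other netrin receptors, Dcc did not pass the filter and Neo1 was not called (log2 difference -0.08, adjusted p = 0.61).

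Of 9 tested class 4 to 7 semaphorins, which are mostly membrane-bound, 4 were called higher and 1 lower in CAR cells. That is 55.6%, beside 43.2% of all genes tested (20.5% higher and 22.7% lower), on few genes. Sema6d, a transmembrane ligand of Plxna1, had 22.7, 24.4 and 23.4 FPKM in CAR wt and 6.24, 8.86 and 6.64 FPKM in PaS wt (log2 difference 1.58, SE 0.11, adjusted p = 1.4e-08). Sema7a, the GPI-anchored semaphorin that binds integrins and Plxnc1, had 9.66, 9.09 and 6.82 FPKM in CAR wt and 1.92, 3.10 and 1.30 FPKM in PaS wt (log2 difference 1.64, SE 0.21, adjusted p = 1.2e-05). Plxnb1, the receptor of Sema4d, had 3.59, 5.73 and 4.48 FPKM in CAR wt and 1.16, 0.815 and 1.38 FPKM in PaS wt (log2 difference 1.39, SE 0.20, adjusted p = 4.1e-05). All 3 separated the populations without overlap. Sema4d, known as a brake on osteoblasts, and Sema5a were also called higher in CAR cells, with log2 differences of 0.97 and 0.96, and so was Plxnc1 at 0.64. The call of Plxnc1 was lost without CAR wt replicate 1 (adjusted p = 0.063). Sema6c was the class 4 to 7 member called higher in PaS cells (log2 difference -0.79, adjusted p = 0.011), while Sema4a, Sema4b, Sema4c and Sema6b were not called, at -0.42 to 0.23.

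Slit2, a secreted ligand of Robo receptors, had 12.7, 13.4 and 11.7 FPKM in CAR wt and 3.75, 4.68 and 3.86 FPKM in PaS wt (log2 difference 1.42, SE 0.12, adjusted p = 9.8e-08). Its receptor Robo2 was low but also higher in CAR cells, at 2.08 ± 0.427 against 0.530 ± 0.103 FPKM (log2 difference 1.00, adjusted p = 4.2e-04). The more abundant Slit3, a Slit of bone-forming cells, did not separate the wt groups, with 23.1, 31.5 and 23.2 FPKM in CAR wt and 24.8, 22.3 and 24.6 FPKM in PaS wt (log2 difference 0.10, adjusted p = 0.58). Robo1 had 3.51, 4.33 and 4.31 FPKM in CAR wt and 4.07, 3.6 and 3.68 FPKM in PaS wt, which overlapped (log2 difference 0.08, adjusted p = 0.70). In ko libraries Robo1 had 5.15, 4.41 and 3.98 FPKM in CAR and 3.14, 2.63 and 2.83 FPKM in PaS cells (log2 difference 0.51, SE 0.14, adjusted p = 0.0094).

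Among ephrins and Eph receptors, the ligands Efnb1 and Efna5 and the receptor Epha2 were higher in CAR cells, and Efnb2, Ephb2, Ephb3 and Epha1 were higher in PaS cells. Efnb1, a transmembrane ephrin that both signals and is signalled to, had 42.4, 44.9 and 42.8 FPKM in CAR wt and 16.6, 16.7 and 18.0 FPKM in PaS wt (log2 difference 1.30, SE 0.08, adjusted p = 1.0e-09). Epha2 had 7.79, 7.80 and 6.59 FPKM in CAR wt and 2.71, 2.19 and 2.26 FPKM in PaS wt (log2 difference 1.31, SE 0.14, adjusted p = 2.1e-06). Both separated the populations fully. Epha1 had 0.186, 0.342 and 0.181 FPKM in CAR wt and 1.33, 1.97 and 1.32 FPKM in PaS wt (log2 difference -1.03, SE 0.20, adjusted p = 5.4e-04), and Ephb2 had 0.509, 0.743 and 0.393 FPKM in CAR wt and 2.66, 1.20 and 1.59 FPKM in PaS wt (log2 difference -0.84, SE 0.25, adjusted p = 0.012). These are low values, and the call of Ephb2 was lost without PaS wt replicate 1 (adjusted p = 0.066). Efna5, Efnb3 and Efna1 were called higher in CAR cells at 1.09, 0.63 and 0.38, and Efnb2 and Ephb3 lower at -0.76 and -0.60. Without PaS wt replicate 2 or 3 the call of Efna1 was lost (adjusted p = 0.0503 to 0.0539), and without CAR wt replicate 1 or PaS wt replicate 3 that of Efnb3 (adjusted p = 0.058 to 0.067).

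**Figure D2:**
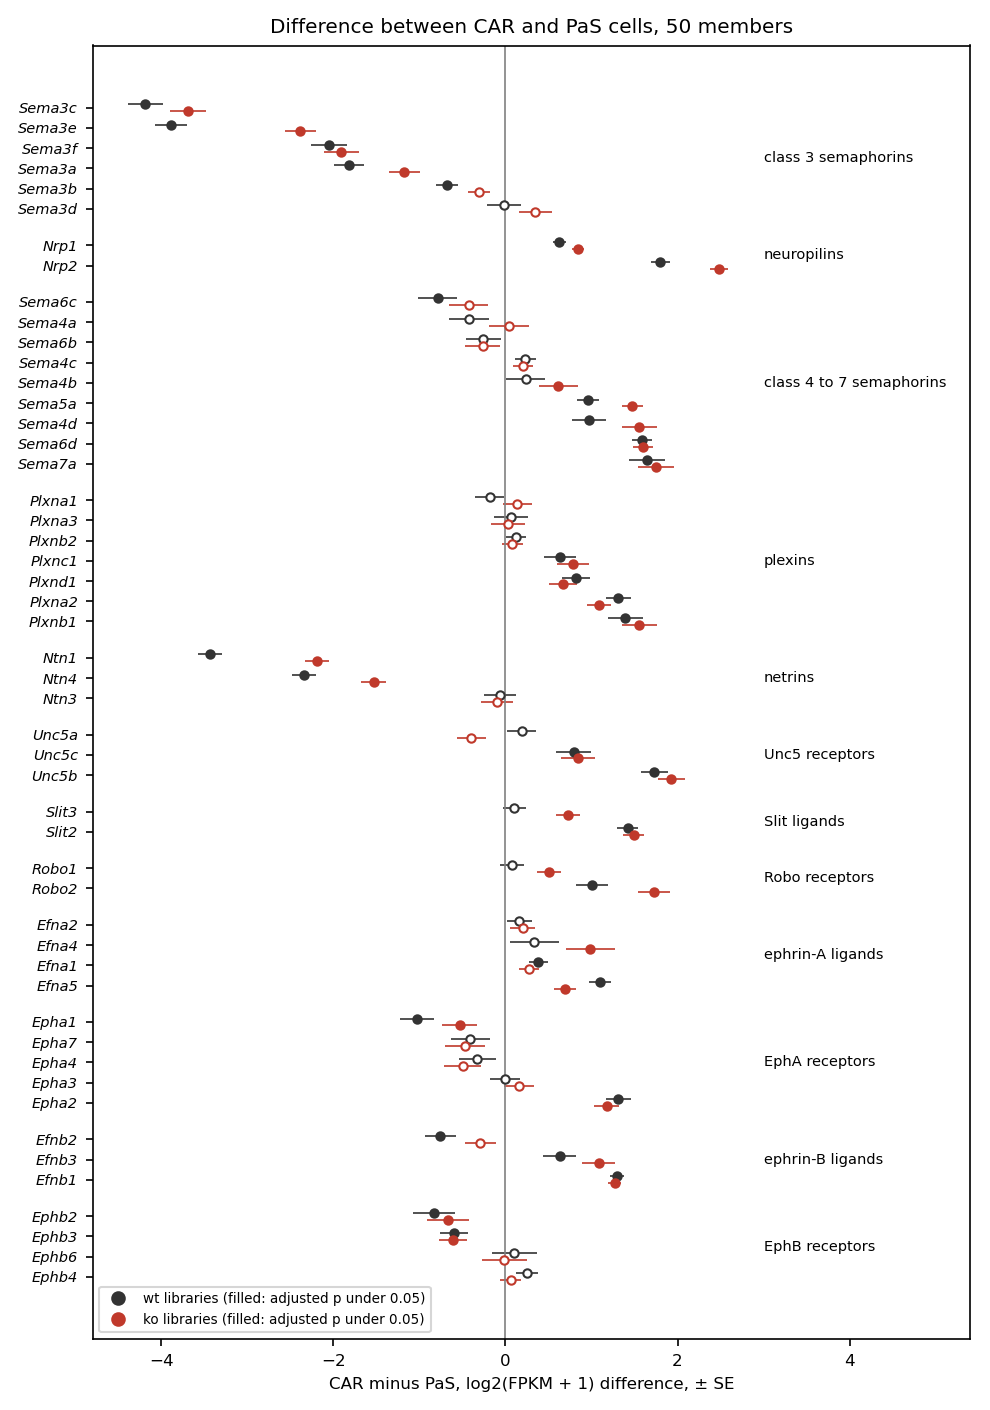
Difference between CAR and PaS cells of all 50 members on the log2(FPKM + 1) scale (x axis, ± SE of the model), by family (y axis), in wt libraries (black) and ko libraries (red); filled points had an adjusted p under 0.05. Sema3c lies farthest to the left at -4.19 in wt libraries, and Nrp2 farthest to the right at 2.48 in ko libraries.

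The same comparison in the ko libraries has no library in common with that in the wt libraries. Both were tested with a spread estimated from all 12 libraries, so their calls are not independent. There 22 members were called higher in CAR and 9 higher in PaS cells, 62% beside 36.9% of all genes tested (17 and 19.8% in the 2 directions). Of the 31 members called in wt libraries, 27 were called in the same direction in ko libraries, 18 higher in CAR and 9 higher in PaS, and none was called in the opposite direction. That is 87.1% of the 31, beside 63.6% of the 5590 genes called in wt libraries. The 27 include Epha1, Ephb2, Sema3f, Efnb3, Robo2 and Unc5c, which passed the filter through 1 population alone. That filter used wt and ko libraries together, which favours a call in both. Of the 41 members at 1 FPKM or more in 3 libraries of each population, 19 were called higher in CAR ko and 6 higher in PaS ko, or 61%. Efna1, Efnb2, Sema3b and Sema6c were called in wt libraries alone, and Efna4, Robo1, Sema4b and Slit3 in ko libraries alone; none of these 8 passed the test of the difference between the 2 effects. Some calls in ko libraries rest on single libraries: that of Robo1 was lost without CAR ko replicate 1 (adjusted p = 0.0514), that of Efna4 without CAR ko replicate 1 or PaS ko replicate 2 or 3 (adjusted p = 0.0519 to 0.074). The calls of the low genes Epha1, Ephb2 and Sema4b were fragile, lost without 10, 8 and 7 of the 12 libraries taken singly. That of Epha1 was lost without any library other than PaS wt replicate 2 and PaS ko replicate 2 (adjusted p = 0.0503 to 0.20). That of Ephb2 was at 0.0509 to 0.21 without CAR wt replicate 1 or 3, any CAR ko replicate, PaS wt replicate 3 or PaS ko replicate 1 or 2, and that of Sema4b at 0.0532 to 0.17 without CAR wt replicate 1, CAR ko replicate 1 or 2, PaS wt replicate 1 or any PaS ko replicate. Other settings ended these calls too, 4 for Epha1, 5 for Ephb2 and 4 for Sema4b.

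Markers of other cells differed between these populations too. The 17 endothelial markers summed to 59.5 to 65.7 FPKM in CAR wt and 373 to 387 FPKM in PaS wt libraries, and 14 of 15 tested were called higher in PaS; Cdh5, the endothelial cadherin, had 0.162 to 0.285 and 1.25 to 1.82 FPKM. The 15 neutrophil markers summed to 10483 to 12076 FPKM in CAR wt and 22621 to 25343 FPKM in PaS wt, with 4 called higher in CAR and 11 higher in PaS. The 18 osteoblast markers summed to 33631 to 35388 FPKM in CAR wt and 5566 to 5906 FPKM in PaS wt, with 14 of 17 tested called higher in CAR. The 10 Schwann cell markers summed to 85.7 to 85.9 FPKM in CAR wt and 40.9 to 42.8 FPKM in PaS wt. Of the 4 tested, 2 were called higher in CAR and 1 higher in PaS. Sox10, the defining factor of Schwann cells, was at 0 in all 3 CAR wt libraries and at 0 to 0.165 FPKM in PaS wt. No gene of the marker lists was at 0 in all 12 libraries. The part of these cells in the member differences was not tested.

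The second comparison asks how these genes differ in CAR cells when Ebf1 is targeted. Several secreted ligands and 1 co-receptor were higher in CAR ko libraries: Sema3a, Sema3b, Sema3d, Sema3e, Ntn1, Ntn4, Slit2 and Nrp2 rose, and Unc5a fell. These are 9 of 50 members, 18% beside 12.3% of all genes tested (6.51% higher and 5.74% lower). The median log2 difference was 0.12 over the members and 0.01 over all genes. No plexin, Eph receptor, ephrin, Robo or class 4 to 7 semaphorin was called in CAR cells, among the 34 tested members of these families. Nor were the secreted ligands Sema3c, Sema3f, Slit3 (log2 difference 0.11, limma adjusted p = 0.69) and Ntn3 (-0.01, adjusted p = 0.99).

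Nrp2 had 54.9, 65.9 and 48.1 FPKM in CAR wt against 107, 97.5 and 96.2 in CAR ko libraries (log2 difference 0.83, SE 0.11, adjusted p = 1.0e-04). All 3 ko libraries lay above all 3 wt libraries, so that Nrp2 stood level with Nrp1, which had 114, 107 and 103 FPKM in CAR ko and was not called (log2 difference 0.00, adjusted p = 0.99). Sema3d, a class 3 semaphorin that also guides vessels, had 4.41, 8.53 and 4.29 FPKM in CAR wt against 11.7, 12.4 and 12.5 in CAR ko libraries (log2 difference 1.03, SE 0.19, adjusted p = 0.0024). Sema3e had 0.643, 0.110 and 0.745 FPKM in CAR wt against 2.2, 2.59 and 1.59 in CAR ko libraries (log2 difference 1.07, SE 0.18, adjusted p = 0.0011). Neither overlapped between the genotypes, although Sema3e stayed far under its level of 15.3 ± 2.2 FPKM in PaS ko. Sema3a had 0.915, 1.06 and 0.675 FPKM in CAR wt against 2.02, 2.01 and 1.97 in CAR ko libraries (log2 difference 0.68, SE 0.18, adjusted p = 0.019), and Sema3b had 6.41, 6.43 and 7.02 FPKM in CAR wt against 9.26, 9.45 and 10.7 in CAR ko libraries (log2 difference 0.50, SE 0.13, adjusted p = 0.018). Their ko libraries were also all above the wt libraries, but both calls were near the threshold. That of Sema3a was lost without CAR wt replicate 3 or any single CAR ko library (adjusted p = 0.0542 to 0.076) and with 5 in place of 1 added to FPKM (adjusted p = 0.11), and that of Sema3b without CAR wt replicate 1 or 2 or CAR ko replicate 3 (adjusted p = 0.0537 to 0.080). Sema3c and Sema3f, the other tested members of the class, were not called (log2 differences 0.05 and -0.06). Summed over the class, levels were 17.1 ± 1.54 FPKM in CAR wt against 29.5 ± 0.257 in CAR ko.

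Ntn1 had 2.92, 2.00 and 1.89 FPKM in CAR wt against 3.85, 4.33 and 4.53 in CAR ko libraries (log2 difference 0.69, SE 0.14, adjusted p = 0.0036), and Ntn4 had 5.36, 5.09 and 3.96 FPKM in CAR wt against 8.91, 7.17 and 9.63 in CAR ko libraries (log2 difference 0.72, SE 0.14, adjusted p = 0.0032). Slit2 had 12.7, 13.4 and 11.7 FPKM in CAR wt against 18.4, 20.7 and 19.2 in CAR ko libraries (log2 difference 0.59, SE 0.12, adjusted p = 0.0042). For each of these ligands the groups did not overlap, and no alternative analysis or left-out library ended the call. Unc5a, a netrin receptor, had 2.61, 2.38 and 2.22 FPKM in CAR wt against 1.36, 1.41 and 1.22 in CAR ko libraries (log2 difference -0.55, SE 0.17, adjusted p = 0.0473). That decrease was the weakest call, lost in 14 of 21 alternative analyses, among them without any single CAR or PaS wt library or PaS ko replicate 1 (adjusted p = 0.0525 to 0.14). Of the members without a call, Efnb2, Unc5b and Robo2 came nearest to one, with all ko libraries above all wt libraries, and were called in 7, 4 and 3 alternative analyses: Unc5b had 6.22, 7.43 and 5.03 FPKM in CAR wt against 8.76, 9.13 and 9.22 in CAR ko libraries (adjusted p = 0.056), Robo2 2.08 ± 0.427 and 3.62 ± 1.06 FPKM (adjusted p = 0.061), and Efnb2, a ligand of Ephb4, 1.60 ± 0.391 and 2.85 ± 0.359 FPKM (adjusted p = 0.0504).

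Marker lists moved beside these genes. Of 15 PaS markers, 8 were called higher and 3 lower in CAR ko, and they summed to 2783 to 2881 FPKM in CAR wt, 3859 to 4200 in CAR ko and 19852 to 20882 in PaS wt libraries. Most of the rise in this sum was a single gene, Dcn, at 1490 to 1562 FPKM in CAR wt and 2402 to 2758 FPKM in CAR ko. Ly6a had 4.03 to 5.58 FPKM in CAR wt and 6.67 to 12.25 FPKM in CAR ko, without overlap, and 1740 to 2176 FPKM in PaS wt libraries. Of 17 tested osteoblast markers, 13 were called higher and 1 lower, with sums of 33631 to 35388 FPKM for wt and 43665 to 50955 FPKM for ko. The 1 lower was Col1a1, listed at 0 in CAR ko replicates 2 and 3 and at 4677 FPKM in replicate 1, and Col1a2 was listed at 0 in CAR ko replicate 2. Without these 2 collagen genes the other 16 markers summed to 23612 to 25221 FPKM in CAR wt and 37261 to 45622 FPKM in CAR ko. Neutrophil markers were lower in CAR ko, 14 of 15 called, with sums of 10483 to 12076 and 4738 to 5356 FPKM. Endothelial markers summed to 59.5 to 65.7 and 64.4 to 75.4 FPKM, with 3 of 15 called higher. Chondrocyte markers had 9 of 16 called higher and 4 lower, and summed to 1544 to 1664 and 2380 to 2486 FPKM. CAR markers had 6 of 15 called lower, B cell markers 7 of 8, erythroid markers 9 of 13, monocyte and macrophage markers 6 of 13 and megakaryocyte markers 4 of 11, with none of these 5 lists having a gene called higher. The part of these cells in the rises of the guidance ligands was not tested.

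**Figure D3:**
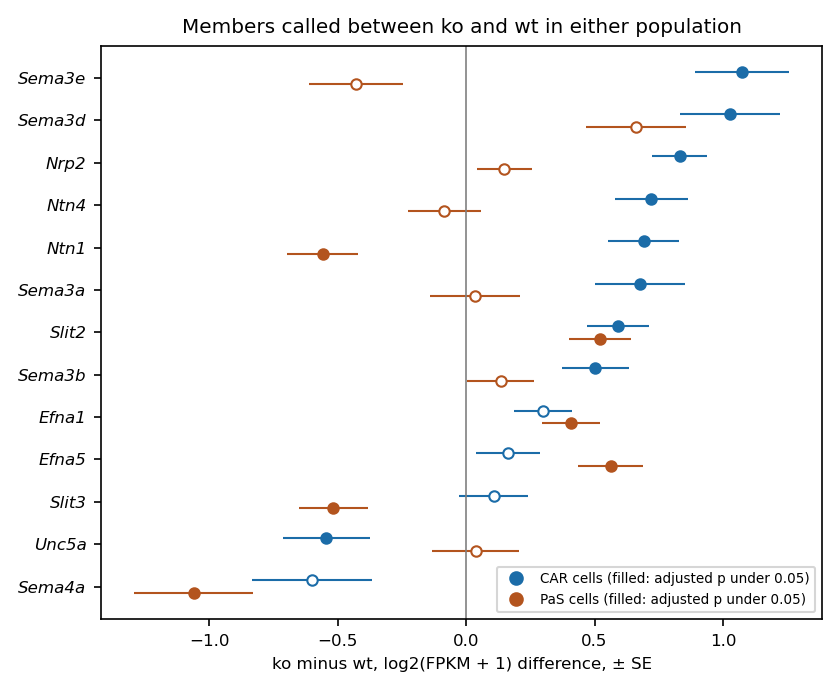
Difference between ko and wt on the log2(FPKM + 1) scale (x axis, ± SE of the model) of the 13 members called in either population (y axis), in CAR cells (blue) and PaS cells (orange); filled points had an adjusted p under 0.05. Slit2 is filled to the right in both populations, and Ntn1 is filled on opposite sides, at 0.69 in CAR and -0.56 in PaS cells.

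The third comparison puts the same question to PaS cells, whose libraries are not shared with the CAR comparison. The spread used in both tests was estimated from CAR and PaS libraries together, so their calls are not independent. Efna1, Efna5 and Slit2 rose in PaS ko and Ntn1, Slit3 and Sema4a fell. These are 6 of 50 members, 12% beside 7.44% of all genes tested (3.41% higher and 4.03% lower), and the median log2 difference was -0.05 over the members and 0.00 over all genes. Each of the 6 calls was lost without some single PaS library. Without PaS ko replicate 3 the 3 members called were Efna5, Ntn1 and Epha1, the last of which is not among the 6.

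Efna5, a GPI-anchored ephrin, had 3.30, 3.28 and 2.87 FPKM in PaS wt against 5.63, 4.46 and 5.35 in PaS ko libraries (log2 difference 0.56, SE 0.13, adjusted p = 0.010), and the call was lost without PaS ko replicate 1 (adjusted p = 0.0501) and with only the PaS groups fitted (adjusted p = 0.060). Efna1, the main ligand of Epha2, had 24.8, 18.9 and 19.4 FPKM in PaS wt against 25.0, 30.0 and 29.1 in PaS ko libraries (log2 difference 0.41, SE 0.11, adjusted p = 0.038). Its call was lost in 9 of 22 alternative analyses, among them without PaS wt replicate 2 or 3, PaS ko replicate 2 or 3, or CAR wt replicate 1 (adjusted p = 0.0503 to 0.15). Both ephrins were higher in every PaS ko than in every PaS wt library, though for Efna1 the nearest libraries lay at 24.8 and 25.0 FPKM, and neither was called in CAR cells (adjusted p = 0.48 and 0.11).

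The 2 Slits went in opposite directions. Slit2 had 3.75, 4.68 and 3.86 FPKM in PaS wt against 5.4, 6.89 and 6.67 in PaS ko libraries (log2 difference 0.52, SE 0.12, adjusted p = 0.013), and it was the only member called higher in both populations. That is 11.1% of the 9 members called in CAR cells, beside 19.9% of the 1585 genes called there. Ntn1 was called in opposite directions, as were 99 of the 12938 genes tested. Slit3 had 24.8, 22.3 and 24.6 FPKM in PaS wt against 16.6, 17.9 and 14.8 in PaS ko libraries (log2 difference -0.52, SE 0.13, adjusted p = 0.027). The PaS groups did not overlap for either gene. The call of Slit2 was lost without PaS wt replicate 1 or PaS ko replicate 2 or 3 (adjusted p = 0.056 to 0.058) and with only the PaS groups fitted (adjusted p = 0.083), and that of Slit3 without PaS wt replicate 1 or 3 or PaS ko replicate 1 or 3 (adjusted p = 0.067 to 0.11) and with no filter (adjusted p = 0.086).

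Ntn1 had 35.1, 35.0 and 32.4 FPKM in PaS wt against 19.1, 25.2 and 24.7 in PaS ko libraries (log2 difference -0.56, SE 0.14, adjusted p = 0.019), with no overlap. The call was lost without PaS wt replicate 1 or 2 or PaS ko replicate 1 (adjusted p = 0.066 to 0.10). Sema4a, a semaphorin of immune cells and vessels, had 4.45, 5.30 and 6.47 FPKM in PaS wt against 2.86, 2.23 and 1.26 in PaS ko libraries (log2 difference -1.06, SE 0.23, adjusted p = 0.0088), the largest change of a member in PaS cells, and the call was lost without PaS ko replicate 3 (adjusted p = 0.0506). In CAR cells Sema4a had 3.75, 5.54 and 2.42 FPKM in wt and 2.08, 2.27 and 2.03 FPKM in ko and was not called (log2 difference -0.60, adjusted p = 0.12). Neutrophil markers were lower beside it in PaS ko, 14 of 15 called, with sums of 22621 to 25343 FPKM in PaS wt and 7044 to 7217 FPKM in PaS ko. Of 13 tested monocyte and macrophage markers, 7 were called higher and 3 lower in PaS ko, and B cell markers summed to 94.7 to 98.6 and 113 to 139 FPKM. The part of blood cells in the decrease of Sema4a was not tested.

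Sema3c and Sema3e, the semaphorins most abundant in PaS cells relative to CAR cells, had every PaS ko library below every PaS wt library without a call. Sema3c had 66.6, 67.5 and 63.0 FPKM in PaS wt against 44.5, 47.2 and 52.3 in PaS ko libraries (log2 difference -0.45, adjusted p = 0.25), and it was called with only the PaS groups fitted (adjusted p = 0.0056) and with 5 in place of 1 added to FPKM (adjusted p = 0.033). Sema3e had 21.6, 22.1 and 18.8 FPKM in PaS wt against 13.0, 17.3 and 15.5 in PaS ko libraries (log2 difference -0.43, adjusted p = 0.20) and was likewise called with 5 added (adjusted p = 0.036). Sema3d went the other way, with 6.74, 5.33 and 4.77 FPKM in PaS wt against 8.24, 10.8 and 9.24 in PaS ko libraries; it was just short of a call (log2 difference 0.66, adjusted p = 0.0527) and passed in 9 of 22 alternative analyses. Endothelial markers summed to 373 to 387 FPKM in PaS wt and 279 to 289 FPKM in PaS ko, with 2 of 15 called lower. Most of both sums was a single gene, Ramp2, at 276.5 to 279.7 FPKM in PaS wt and 190.1 to 195 FPKM in PaS ko. PaS markers had 9 of 15 called lower and 1 higher in PaS ko, with sums of 19852 to 20882 FPKM in wt and 20306 to 20691 in ko libraries. Dcn made up most of both of these sums, at 10650 to 11380 FPKM in PaS wt and 12990 to 13230 FPKM in PaS ko, so they do not reflect the markers called lower. Chondrocyte markers had 11 of 16 called higher and 1 lower, osteoblast markers 8 of 17 higher and 1 lower, erythroid markers 7 of 13 higher, and megakaryocyte markers 6 of 11 lower. The part of these cells in the member values was not tested.

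**Figure D4:**
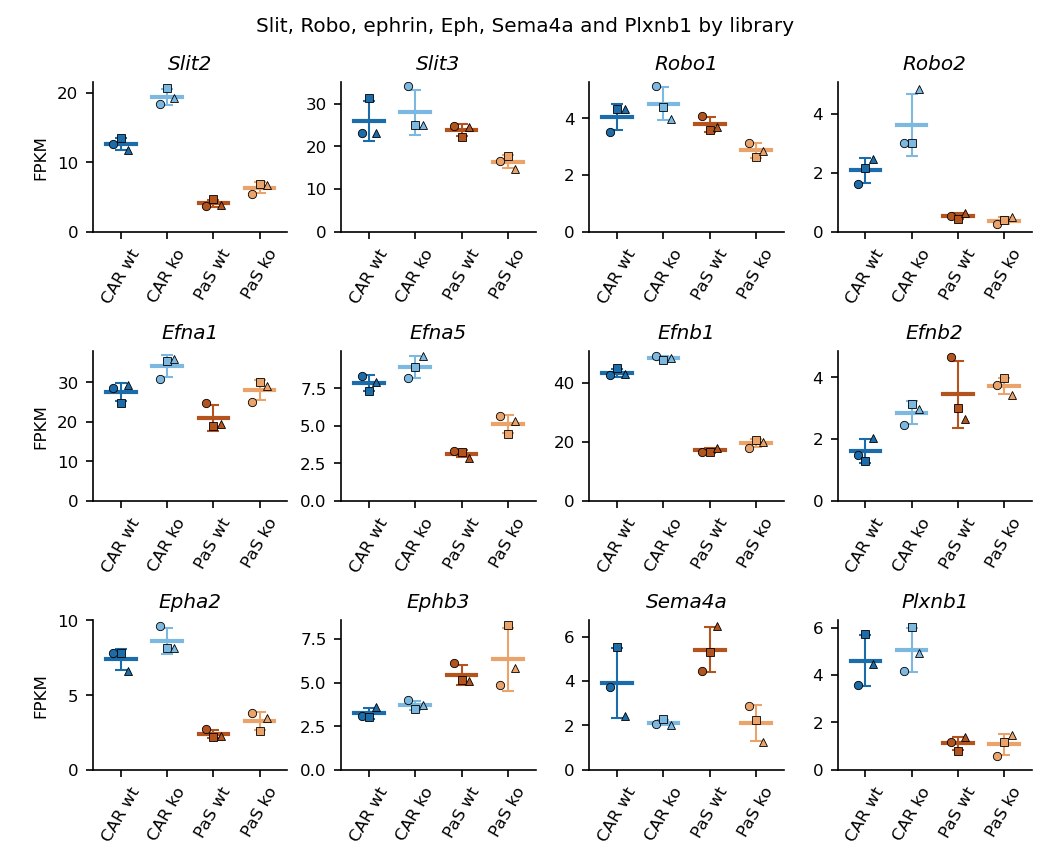
FPKM (linear axis from 0) of Slits, Robos, ephrins, Eph receptors, Sema4a and Plxnb1 in each library of the 4 groups; points are libraries (circle, square and triangle for replicates 1, 2 and 3), bars are means and whiskers are SD of 3 libraries. Slit2 is higher in ko than in wt libraries of both populations, Slit3 is lower in PaS ko than in PaS wt libraries, and Efnb1 is above 40 FPKM in every CAR library and under 21 FPKM in every PaS library.

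Whether the effect of genotype differed between the populations was tested as the difference of the 2 effects, CAR minus PaS. Ntn1, Sema3e, Nrp2 and Ntn4 were called, all with the larger effect in CAR cells, 4 of 50 members or 8% beside 6.58% of all genes tested (3.32% in this direction and 3.26% in the other, where no member was called). Ntn1 had the widest difference by p (log2 difference 1.25, SE 0.20, adjusted p = 0.0010): it rose in CAR ko and fell in PaS ko. Its mean levels in CAR and PaS cells were 2.27 ± 0.566 and 34.1 ± 1.54 FPKM in wt and 4.24 ± 0.354 and 23.0 ± 3.44 FPKM in ko libraries (SD, n = 3 each). Sema3e had log2 differences of 1.07 in CAR and -0.43 in PaS cells (log2 difference 1.5, SE 0.26, adjusted p = 0.0021), Nrp2 0.83 and 0.15 (log2 difference 0.68, SE 0.15, adjusted p = 0.014), and Ntn4 0.72 and -0.09 (log2 difference 0.81, SE 0.20, adjusted p = 0.025). The call of Ntn4 was lost without CAR wt replicate 3, CAR ko replicate 1 or 3, PaS wt replicate 1 or 3 or PaS ko replicate 1 or 2 (adjusted p = 0.0524 to 0.066) and with no filter (adjusted p = 0.071). Slit2 had log2 differences of 0.59 in CAR and 0.52 in PaS cells (difference 0.07, SE 0.17, adjusted p = 0.87). For Slit3 and Sema4a, called in PaS cells alone, the difference of effects was 0.62 (adjusted p = 0.066) and 0.46 (adjusted p = 0.48). That of Slit3 passed with library weights (adjusted p = 0.028) and without CAR wt replicate 2 (adjusted p = 0.019).

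Other genes of these pathways were taken as a list of 129 co-receptors, further ligands and intracellular effectors, of which 100 were tested. In CAR cells 19 rose and 2 fell in ko libraries. The 6 with the smallest p all rose: Fyn, a Src-family kinase downstream of Eph, plexin and netrin receptors (log2 difference 0.77, adjusted p = 2.4e-06), Maged1, an Unc5 binding protein (log2 difference 0.56), Ptprs, a receptor phosphatase (0.66), Sdc3, a syndecan (0.67), the netrin receptor Neo1 (0.56) and Ngef, the Eph-activated exchange factor ephexin (0.78; adjusted p = 0.0035). In PaS cells 7 rose and 4 fell; the smallest p-values belonged to the glypican Gpc1 (0.46, adjusted p = 3.4e-04), Sdc3 (0.64), Rhod (0.53), Pak1, a Rac and Cdc42 effector (0.49), Ptprd (0.31) and Vasp (-0.38). Sdc3, Pak1, Gpc1 and Ngef were called higher in both populations and Inpp5d, a phosphatase of blood cells, lower in both. Dcbld2 and Fyn were called in opposite directions. Fyn rose in CAR ko and fell in PaS ko (log2 difference -0.24, adjusted p = 0.0495), and the difference of its effects was 1.00 (SE 0.10, adjusted p = 1.6e-05). Of the 100, 21% were called in CAR and 11% in PaS cells, beside the 12.3% and 7.44% of all genes given above.

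The remaining 37 of the 50 members, 74% beside 83.5% of all genes tested, showed no call between genotypes in either population, and members not called in a population had log2 differences of -0.60 to 0.58 in CAR and -0.60 to 0.66 in PaS cells. The 37 include both tested B-type plexins, all 5 EphA and all 4 EphB receptors tested, all 3 B-type ephrins and both Robo receptors. The 18 members under the filter reached at most 2.10 FPKM in any library. Robo4, the endothelial Robo, and Sema6a were just outside the filter, each with 2 libraries at 1 FPKM or more, and Sema6a had another at 0.9999 FPKM; Epha7 was just inside with 3 such libraries, the highest at 1.83 FPKM.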

How the data were processed

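RNA-seq of 12 sorted stromal libraries was used; 8 ATAC-seq samples of the series were not analysed here. The authors deposited 1 table of FPKM per library and gene symbol; per the submitters' processing notes, tools included TopHat2 2.0.14, Cufflinks 2.2.1, Cuffnorm 2.2.1 and Cuffdiff with build mm10, and their settings and the annotation are not given in the sources used here. Strand use in counting is likewise not given, so overlapping and antisense genes may share reads. Read depth is unknown; steps between low values put the libraries at 0.904 to 1.14 times the depth of CAR wt replicate 1.

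Genes with 1 FPKM or more in 3 or more libraries were kept, 1 was added, and log2 values of the 4 groups were fitted together with limma 3.58.1 (R 4.3.3; trend, 8 residual degrees of freedom), with Benjamini-Hochberg adjustment over 12938 genes. Alternatives changed the added value, filter, scaling, weights, groups fitted and zeros, added a replicate block or left out each library. Library values are given, in the groups of the comparison concerned, for members called between genotypes, the 8 widest population differences in each direction and the member of each family with the highest mean over all libraries. Of other pathway genes, up to 6 called ones with the smallest p per comparison were named, and further ones were named after their values were seen. Members, pathway genes and marker lists were chosen with earlier results of these data known. Promoters came from RefSeq (GRCm38.p6), and only bases before the start were read.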

Additional observations from a re-analysis of the deposited data

Results flagged for a closer look

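For 4 members the effect of genotype differed between CAR and PaS cells by a test of the difference itself (limma, adjusted over all genes tested). The difference of effects, CAR minus PaS on the log2(FPKM + 1) scale, was 1.25 for Ntn1, 1.5 for Sema3e, 0.68 for Nrp2 and 0.81 for Ntn4, with adjusted p = 0.0010, 0.0021, 0.014 and 0.025. In CAR cells each of the 4 was higher in all 3 ko than in all 3 wt libraries, and in PaS cells Ntn1 was lower in all 3 ko libraries than in all 3 wt libraries. The test used these same libraries, so their separation is no further support. Uncalled members such as Efna1, Efnb1 and Epha2 were likewise higher in every CAR ko than in every CAR wt library.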

How the results depend on the processing

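No call of a member changed direction in any alternative. Counts of called members stayed within 1.5 times the reported count in all alternatives that kept every library, except that 20 rather than 31 were called between ko CAR and ko PaS cells with a filter of 5 FPKM, which left 30 members to test. Leaving out single libraries gave 6 to 9 called members for CAR ko against wt, 3 to 7 for PaS ko against wt, 3 to 5 for the difference of effects, 29 to 32 between wt populations and 27 to 31 between ko populations. The lowest counts for CAR (6) and PaS cells (3) came without CAR ko replicate 3 and without PaS ko replicate 3. Of the calls, 6 of 9 in CAR, 0 of 6 in PaS, 3 of 4 for the difference, 27 of 31 between wt and 26 of 31 between ko populations were kept in every alternative that tested them. Same-numbered replicates did not deviate together: correlations were -0.041 to 0.108, with 1 of 12 pairs over 0.1 and 2 of 12 best with their own number. With the replicate block, 9, 6, 4, 31 and 29 members were called in the 5 comparisons, in the order above; the calls of Unc5a in CAR (adjusted p = 0.061), Efna1 in PaS (0.057), and Epha1 (0.065) and Sema4b (0.061) between ko populations were lost, and Robo2 in CAR (0.042) and Sema3d in PaS cells (0.0446) were gained. Depth is unknown, so no counting error could be set beside low values such as those of Epha1, Ephb2 and Robo2.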

Other observations

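Other genes of the guidance pathways also differed between the wt populations. Of the 100 other pathway genes tested, 26 were called higher in CAR and 37 higher in PaS cells, 63% beside 43.2% of all genes tested (20.5% and 22.7%). The 6 with the smallest p were Gpc3 (log2 difference, CAR minus PaS, -3.19) and Gpc1 (1.73), both glypicans, Ablim1, an actin-binding protein (-4.16), Fyn (-1.60), Plxdc1 (-2.79) and the syndecan Sdc1 (1.45). The VEGF family, whose ligands can bind neuropilins, was picked out after its values were seen. Its ligands Vegfa, Vegfc and Pgf were higher in CAR cells, at 0.95, 1.60 and 1.82, as were both neuropilins, while the receptors Kdr and Flt4 were lower at -1.96 and -1.22. None of these 5 was called between genotypes in either population. Kdr and Flt4 are endothelial genes, and endothelial markers were higher in PaS libraries; their part in the difference was not tested.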
